A study of Mus musculus with 15 samples.

Results

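Corneas of OPA1+/- mice were compared with corneas of OPA1+/+ mice at 6 months of age, in 4 and 3 RNA sequencing libraries, which are 7 of the 15 libraries of the study. The libraries were chosen by genotype and age as their titles give them. Genes entered when 10 or more reads were counted in 3 or more of these 7 libraries, which held for 15309 of 55357 genes, 49 of them through OPA1+/- libraries only and 2 through OPA1+/+ libraries only. The other 8 libraries of the study, 4 of each genotype, came from mice of 3 months. They entered the model below through the estimate of the spread and served as a second look at genes that differed at 6 months. The study is set in inherited mitochondrial dysfunction and the sensory innervation of the cornea. OPA1+/- animals carry 1 altered copy of Opa1, and the labels name no allele, strain, sex, litter or time of dissection. They do not say how many animals a library holds or whether libraries came from separate animals, so p-values measure the spread between these libraries.

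Opa1 is a GTPase of the dynamin family anchored in the inner membrane of mitochondria. It joins the inner membranes of fusing mitochondria, shapes the cristae that hold the respiratory chain, and is the gene most often altered in dominant optic atrophy. The cornea is covered by an epithelium that renews itself from dividing basal cells, is crossed by sensory nerve endings whose cell bodies lie in the trigeminal ganglion, and shows daily rhythms of gene expression and cell division.

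Library totals at 6 months ran from 12654656 to 13948379 counts, and log2 values of any pair of the 7 libraries correlated over genes at 0.9852 to 0.9914. Krt12, the keratin of the differentiated corneal epithelium, and Pax6, a transcription factor that maintains it, were at 26020 to 28690 and at 1068 to 1179 CPM (read counts scaled to a common library total of 1e6). Nerve transcripts were near the limit of detection: 2 of 20 listed members entered, and Scn10a, a sodium channel of sensory neurons, had 0 counts in all 7 libraries, which allows up to 0.2151 to 0.2371 CPM (3 counts). Every library held both Xist (1413 to 1969 CPM), the RNA of the inactive X chromosome, and transcripts of 4 Y-linked genes (133.5 to 169.8 CPM summed), so RNA of both sexes was present in each. OPA1+/+ replicate 1 stood apart, with a sum over 19 photoreceptor markers of 192 CPM against 14.96 to 32.8 CPM in the other 6. A further library of this kind, OPA1+/- replicate 4 of 3 months, held 198 CPM.

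Opa1 itself was lower in every OPA1+/- library. It was at 67.4, 66.7 and 73.2 CPM in the 3 OPA1+/+ libraries and at 46.9, 49.0, 46.9 and 48.4 CPM in the 4 OPA1+/- libraries. The groups did not overlap, and the mean CPM in OPA1+/- was 69.2% of that in OPA1+/+. Opa1 fell by 0.53 ± 0.06 on the log2 scale (standard error; adjusted p = 0.000641, edgeR's quasi-likelihood test with Benjamini-Hochberg adjustment over all genes entered, n = 3 and 4). An exact two-sided permutation test over the 7 libraries gave p = 0.0571, the smallest p that 3 against 4 libraries allow. Opa1 occupies bases 29398152 to 29473702 of the plus strand of chromosome 16 in the coordinates of the deposited files, whose annotation is on GRCm39. Of 59 genes entered that lie at least in part within 5 Mb of it, 1 was called, against 0.333% of all genes entered. That gene was Lpp, a focal adhesion protein that rose by 0.30 ± 0.06 (adjusted p = 0.0281, edgeR) and is named here after its value was seen. Of the 59, 27 had positive and 32 negative fold changes, with a median of -0.018.

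Over all genes, 51 of 15309 passed an adjusted p of 0.05, which is 0.333% of the genes entered. The called genes divided into 25 higher in OPA1+/- (0.163%) and 26 lower (0.17%). An unadjusted p under 0.05 was found for 1589 genes (10.4%; 4.98% higher and 5.4% lower), and the CPM values of the 2 genotypes did not overlap for 1751 genes (11.4%). Differences were small: absolute log2 fold changes of the called genes ran from 0.24 to 1.34 with a median of 0.54, 23 were under 0.5, and 4 exceeded 1. The median over all genes was 0.0033 after scaling, which centres the fold changes and cannot show a general shift. All 51 called genes separated the 3 OPA1+/+ from the 4 OPA1+/- libraries without overlap, as the heat map of called genes shows. That count is read with no test, since the call and the separation use the same values. Of the 51, 25 belonged to one of the gene lists used here and 26 to none.

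**Figure D1:**
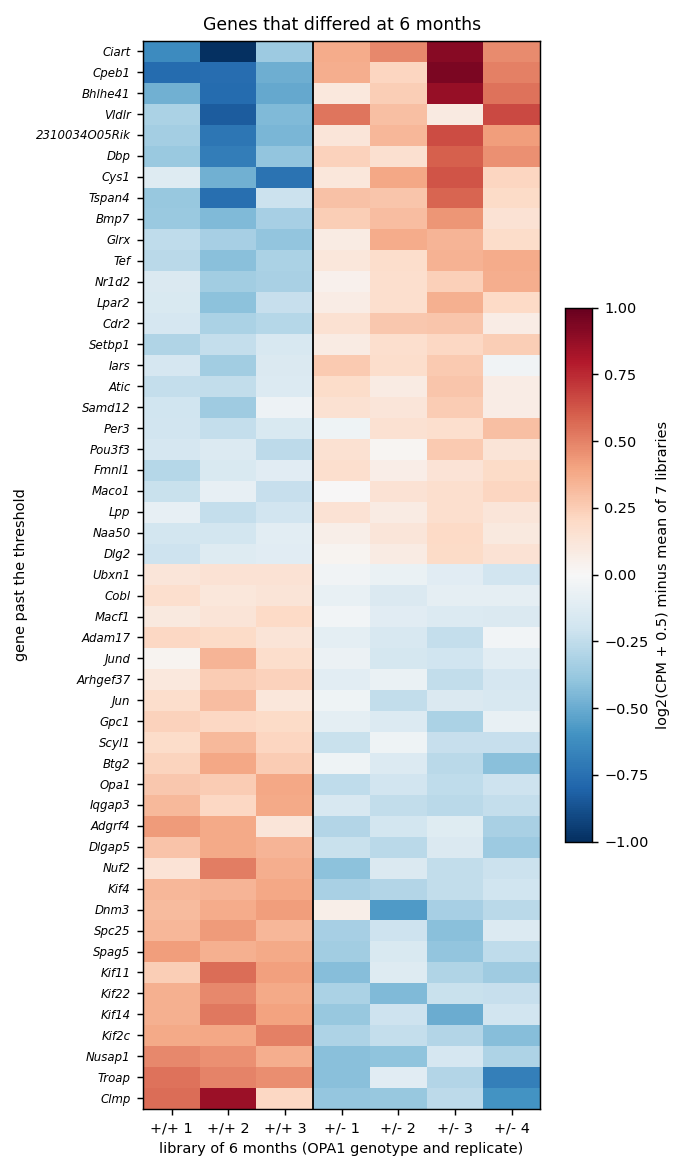
Heat map of the 51 genes that passed an adjusted p of 0.05 at 6 months (rows, ordered by fold change) in the 3 OPA1+/+ and 4 OPA1+/- libraries (columns). Colour gives log2(CPM + 0.5) minus the mean of the gene over the 7 libraries, red above and blue below that mean. Ciart heads the 25 genes that were higher in OPA1+/-, and Clmp ends the 26 that were lower.

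At 6 months 6 genes of the circadian clock were higher in OPA1+/- than in OPA1+/+ corneas. All are repressors or output factors that the clock's activators switch on. The clock is a loop in which Arntl, paired with Clock or Npas2, activates the Per and Cry genes, the Nr1d receptors and the factors Dbp and Tef, whose products then restrain or carry on the rhythm. Of 20 core loop genes entered, 4 rose (Ciart, Bhlhe41, Nr1d2 and Per3) and none fell. Of 11 output factors 2 rose (Dbp and Tef) and none fell, against 0.163% of all genes entered that rose. For all 6 the OPA1+/+ mean at 6 months was below both means of 3 months. Tef averaged 242 CPM in OPA1+/+ and 364.5 CPM in OPA1+/- at 6 months, and 330 and 340 CPM at 3 months. Per3 averaged 254 and 323 CPM at 6 months, and 328 and 313 CPM at 3 months. The activators had negative fold changes that did not pass. In a fit of the 7 libraries alone 5 core loop genes were higher and 2 were lower, with Arntl (adjusted p = 0.000812, edgeR) and Npas2 (0.0309) passing as lower, Per2 passing as higher (0.00618) and Bhlhe41 not passing. Of the 4 core loop calls none was made without OPA1+/+ replicate 2, 1 was made without replicate 1 of that genotype, 2 were made when replicate 2, 3 or 4 of OPA1+/- was left out, and of the output factors Tef alone was called without OPA1+/+ replicate 2.

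Tef, a PAR-domain leucine zipper factor, had the smallest adjusted p together with Opa1. It was at 253, 228 and 246 CPM in OPA1+/+ and at 330, 344, 388 and 396 CPM in OPA1+/-. All 4 OPA1+/- libraries lay above all 3 OPA1+/+ libraries, and the log2 fold change of Tef was 0.59 ± 0.07 (adjusted p = 0.000641, edgeR). Dbp, its close relative, was at 110.3, 88.2 and 109 CPM in OPA1+/+ and at 167, 159.9, 217 and 197 CPM in OPA1+/-. Dbp rose by 0.85 ± 0.12 (adjusted p = 0.0154), with replicates 3 and 4 of OPA1+/- the highest for both factors.

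Ciart, a repressor of the Arntl and Clock pair, was at 6.10, 3.87 and 7.44 CPM in OPA1+/+ and at 12.7, 13.7, 18.7 and 13.7 CPM in OPA1+/-. It had the largest fold change among the called genes (1.34 ± 0.26, adjusted p = 0.0415). Bhlhe41, a repressor that competes for the same DNA element, was at 25.7, 20.9 and 25.2 CPM against 38.9, 42.8, 66.4 and 52.7 CPM and rose by 1.07 ± 0.18 (adjusted p = 0.0252). OPA1+/- replicate 3 was the highest library for both repressors. Nr1d2, a nuclear receptor that represses Arntl, was at 151, 131 and 133 CPM against 172, 187, 197 and 215 CPM and rose by 0.48 ± 0.07 (adjusted p = 0.012). Per3, a period gene, was at 254, 246 and 261 CPM against 283, 323, 326 and 359 CPM and rose by 0.35 ± 0.06 (adjusted p = 0.0179).

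Among the activators, Arntl was at 39.4, 51.2 and 54.2 CPM in OPA1+/+ and at 23.7, 19.7, 18.2 and 19.1 CPM in OPA1+/-, without overlap (-1.26 ± 0.30, adjusted p = 0.122). Npas2 had -0.90 ± 0.21 (adjusted p = 0.0864) and Clock -0.28 ± 0.08 (adjusted p = 0.124), neither of which passed. At 3 months Arntl averaged 17.6 CPM in OPA1+/+ and 18.7 CPM in OPA1+/-. Per2, another period gene, had 0.73 ± 0.16 (adjusted p = 0.0965) with all 4 OPA1+/- libraries at 67.2 CPM or more and all 3 OPA1+/+ libraries at 53.5 CPM or less. Cry1, a repressor of the loop, was at 8.96 to 15.7 CPM in OPA1+/+ and 11.6 to 15.04 CPM in OPA1+/- (-0.02 ± 0.17), and Nr1d1 overlapped as well (0.29 ± 0.17). In all, 8 core loop genes were higher and 3 were lower without overlap between the genotypes. Over all genes entered, 5.83% were higher and 5.61% lower without overlap.

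The promoters of 4 of the called clock genes are shown because they carry the letters that the clock's own factors are known to read. The E-box CACGTG is read by the Arntl and Clock pair and by the Bhlhe repressors, and the D-box TTATGTAA by Dbp, Tef and their relatives. Each sequence is the 250 bases before the RefSeq start of the gene, on the strand of the gene, 5′ to 3′, from GRCm38.p6, with E-box and D-box letters in capitals. Ciart is at chr3:95882229-95882478, minus strand, Bhlhe41 at chr6:145865421-145865670, minus strand, Per3 at chr4:151044666-151044915, minus strand, and the downstream of the 2 listed starts of Tef at chr15:81811164-81811413, plus strand.
Ciart: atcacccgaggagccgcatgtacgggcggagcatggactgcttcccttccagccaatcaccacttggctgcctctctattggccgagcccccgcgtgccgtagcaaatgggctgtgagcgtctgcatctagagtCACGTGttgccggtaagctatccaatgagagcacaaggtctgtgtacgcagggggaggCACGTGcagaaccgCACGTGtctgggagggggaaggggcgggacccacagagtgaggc
Tef: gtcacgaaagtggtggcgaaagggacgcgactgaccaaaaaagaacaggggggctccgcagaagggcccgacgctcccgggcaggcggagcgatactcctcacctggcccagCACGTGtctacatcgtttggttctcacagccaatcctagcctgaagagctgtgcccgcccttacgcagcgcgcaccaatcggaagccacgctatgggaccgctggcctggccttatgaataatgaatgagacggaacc
Bhlhe41: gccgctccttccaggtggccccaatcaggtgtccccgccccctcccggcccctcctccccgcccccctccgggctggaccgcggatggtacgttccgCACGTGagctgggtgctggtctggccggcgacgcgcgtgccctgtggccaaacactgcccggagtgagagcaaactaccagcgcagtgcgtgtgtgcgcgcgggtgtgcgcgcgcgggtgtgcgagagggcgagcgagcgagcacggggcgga
Per3: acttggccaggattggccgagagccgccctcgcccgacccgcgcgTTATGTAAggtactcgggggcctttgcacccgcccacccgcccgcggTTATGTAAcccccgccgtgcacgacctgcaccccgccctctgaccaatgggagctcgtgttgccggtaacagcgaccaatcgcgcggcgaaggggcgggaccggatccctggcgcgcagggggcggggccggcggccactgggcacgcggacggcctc
Both strands were searched. CACGTG stood 3 times in the Ciart window, 116, 58 and 44 bases before the start, and once in those of Bhlhe41 (153 bases before) and Tef (138 bases before this start and 127 before the other). TTATGTAA stood in the Per3 window at 205 and 158 bases before the start. No printed match overlaps another, and neither set of letters was found in the windows of Dbp and Nr1d2. Of 32851 promoters of this length in the table, 6.02% held CACGTG and 0.819% held TTATGTAA, and of those of genes entered here 8% and 0.448%. A match describes the letters in the window and shows no binding.

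**Figure D2:**
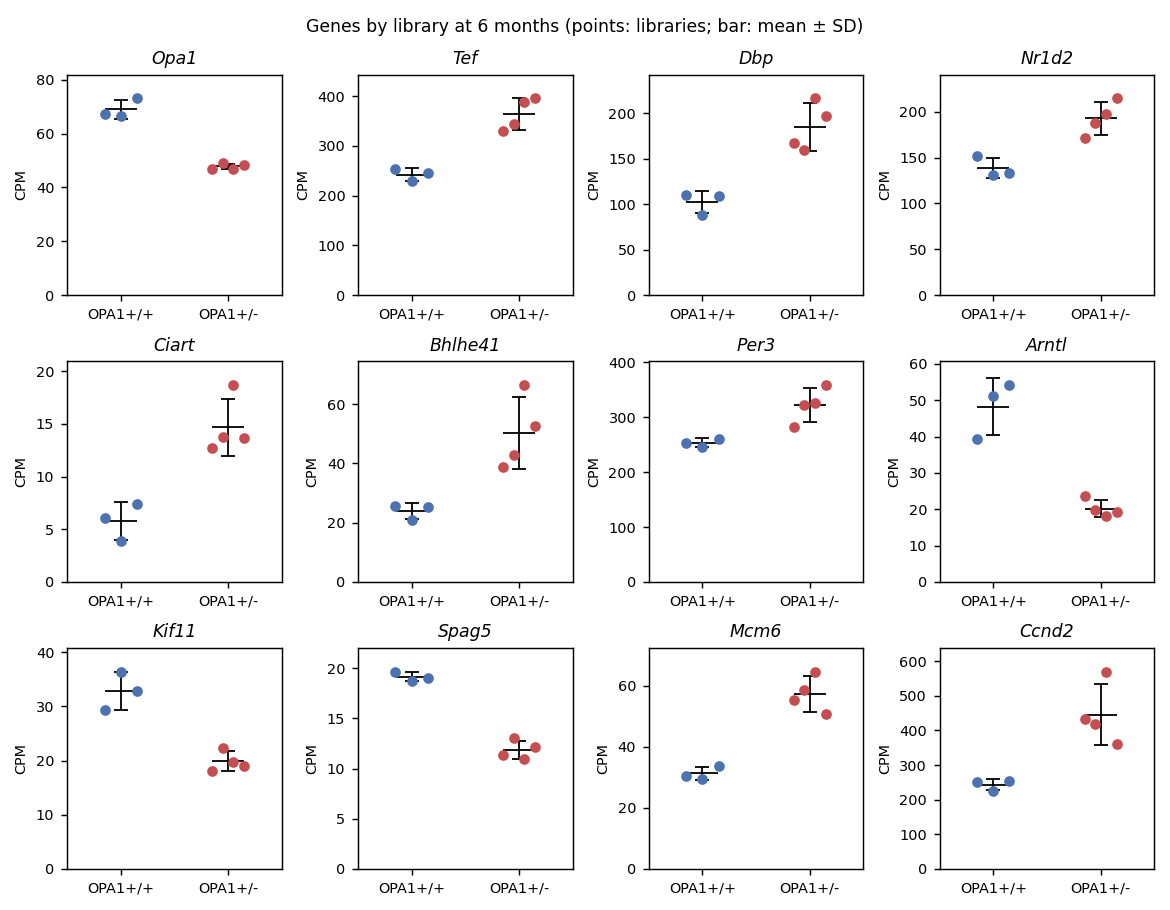
CPM at 6 months of 12 genes in each library of OPA1+/+ (blue, 3 libraries) and OPA1+/- (red, 4 libraries), each panel with its own linear axis from 0; the bar is the mean and the whiskers the SD. Opa1, Arntl, Kif11 and Spag5 lie lower in OPA1+/- and the other 8 genes higher, with no overlap in any panel; Arntl, Mcm6 and Ccnd2 did not pass the test over all genes.

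Genes of mitosis made up the largest listed group among those that fell. Of 77 genes of the spindle, kinetochore, mitotic kinases and cytokinesis, all of which entered, 11 fell and none rose, against 0.17% of all genes that fell. The list was assembled with earlier results of these data known, so its direction is a description. Negative fold changes were found for 74 of the 77, and the median log2 fold change was -0.55 against 0.003 over all genes entered. Of the 77, 66 were lower without overlap of the genotypes, against 5.61% of all genes entered. Summed over the list, levels were 2549 to 2687 CPM in OPA1+/+ and 1785 to 1897 CPM in OPA1+/-. The count of 11 was 0 without OPA1+/+ replicate 2 and 2 to 5 without any other library of 6 months, and of the libraries of 3 months leaving out OPA1+/- replicate 4 or 3 gave 7 or 17, and leaving out OPA1+/+ replicate 2 or 4 gave 22 or 23. In bulk tissue, fewer dividing cells and less of these RNAs per dividing cell cannot be told apart.

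Kinesins, the motors that build and move the spindle, made up 5 of the 11 genes that fell. Kif11, which pushes the spindle poles apart, was at 29.3, 36.4 and 32.8 CPM in OPA1+/+ and at 18.1, 22.4, 19.8 and 19.1 CPM in OPA1+/-. It fell by 0.73 ± 0.11 (adjusted p = 0.012, edgeR), and no OPA1+/- library reached the lowest OPA1+/+ library. Kif2c, which takes apart microtubule ends at the centromere, and Kif14, which acts in cytokinesis, fell by 0.77 ± 0.15 and 0.77 ± 0.14. Kif22, which moves chromosome arms, fell by 0.73 ± 0.13, and Kif4, a chromosome-bound kinesin encoded on the X chromosome, by 0.63 ± 0.13.

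Spindle and kinetochore proteins supplied the other 6. Troap, a microtubule-associated protein, had the largest fall of the list, at 9.11, 8.78 and 8.61 CPM in OPA1+/+ and 4.43, 5.601, 4.87 and 3.59 CPM in OPA1+/- (-0.93 ± 0.17, adjusted p = 0.0243). Nusap1, which bundles spindle microtubules, was at 26.6, 26.1 and 24.4 CPM against 13.97, 14.1, 16.7 and 15.2 CPM (-0.78 ± 0.15, adjusted p = 0.0397). Spag5, which holds the spindle poles together, fell by 0.69 ± 0.12 and Dlgap5, which stabilises kinetochore fibres, by 0.59 ± 0.12. Spc25 and Nuf2, subunits of the Ndc80 complex that ties kinetochores to microtubules, fell by 0.68 ± 0.12 and 0.63 ± 0.13.

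Among the 66 listed genes that did not pass are the usual proliferation markers, named here after their values were seen. Mki67 was at 282.8 to 329.5 CPM in OPA1+/+ and 202 to 222.9 CPM in OPA1+/- (-0.55 ± 0.17 on the log2 scale, adjusted p = 0.234). Top2a, the topoisomerase of chromosome condensation, had -0.57 ± 0.13 (adjusted p = 0.101), and the kinases Cdk1 and Plk1 had -0.60 ± 0.15 and -0.74 ± 0.18 (adjusted p = 0.091 and 0.108). None of the 4 overlapped between the genotypes. The 11 members that overlapped, named on the same terms, were the condensin genes Ncaph, Smc2 and Ncapg2, the centromere genes Cenpk, Cenpm, Cenpn and Cenpu, the kinetochore gene Spc24, the checkpoint gene Mad2l1, the mitotic inhibitor Fbxo5 and the transcription factor Mybl2. Among them Cenpk had 0.12 and Cenpm -0.10.

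Promoters of 2 of the fallen kinesins are shown. They hold a pair of elements that mitotic genes commonly share, the CHR element TTTGAA and the CCAAT box. No other fallen kinesin held both within 100 bases of its start. The windows are the 100 bases before the RefSeq start, on the strand of the gene and from the same build, with both elements in capitals on whichever strand they lie (TTCAAA and ATTGG are the same elements on the other strand). Kif11 is at chr19:37376282-37376381, plus strand, and Kif22 at chr7:127042421-127042520, minus strand.
Kif11: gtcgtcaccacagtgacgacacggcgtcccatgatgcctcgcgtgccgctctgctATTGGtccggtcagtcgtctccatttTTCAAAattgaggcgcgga
Kif22: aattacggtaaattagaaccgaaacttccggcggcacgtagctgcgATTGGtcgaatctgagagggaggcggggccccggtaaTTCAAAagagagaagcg
In Kif11 the CHR letters began 19 bases and the CCAAT letters 45 bases before the start, and in Kif22 17 and 54 bases before it, and no match overlapped another. Over windows of 250 bases, 4 of 10 promoters of fallen mitosis genes in the table held TTTGAA (40%) and 7 held CCAAT (70%). The whole mitosis list did so in 34.2% and 74% of 73 promoters, and all 32851 promoters in 16% and 33.8%. Promoters of genes entered did so in 10.8% and 34.9%. Of the other fallen kinesins, Kif14 held CHR letters 228 and CCAAT letters 92 bases before the start. Kif2c held CHR letters only, at 103 bases, and Kif4 CCAAT letters only, at 152 and 5 bases.

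Genes of DNA replication did not fall with those of mitosis. Of 50 replication and S phase genes, all entered, none passed, 45 had positive fold changes, and the median was 0.33 against 0.003 over all genes. Without overlap, 24 were higher in OPA1+/- and 1 was lower, against 5.83% and 5.61% of all genes entered. The lower gene was Dbf4, an activator of the replication kinase Cdc7 that is named here after its value was seen (-0.29 ± 0.12). Summed over the list, levels were 923 to 1071 CPM in OPA1+/+ and 1132 to 1346 CPM in OPA1+/-. Of the lists drawn in the plot of gene lists, which leaves out markers of other tissues and cells, replication had the highest median and mitosis the lowest. The retina and photoreceptor markers, which OPA1+/+ replicate 1 carried, had a median of -1.91 over 9 genes.

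Mcm6, a subunit of the replicative helicase, was at 30.6, 29.4 and 33.8 CPM in OPA1+/+ and at 55.5, 58.6, 64.6 and 50.8 CPM in OPA1+/- (0.88 ± 0.32, adjusted p = 0.343). Cdc6, which loads that helicase, had 0.80 ± 0.30 (adjusted p = 0.341), Gins1, which completes it, 0.78 ± 0.26 (adjusted p = 0.248), and Ccne1, the cyclin of S phase entry, 0.49 ± 0.18 (adjusted p = 0.314). None of these 4 genes overlapped between the genotypes at 6 months, yet none passed. At 3 months Mcm6 was at 28.8, 34.8, 78.3 and 70.4 CPM in OPA1+/+ and at 46.4 to 69.0 CPM in OPA1+/-. Those libraries share the estimate of the spread. In a fit of the 7 libraries alone, without the libraries of 3 months, 200 genes passed (1.31% of those entered; 0.451% higher and 0.856% lower). These included 10 replication genes, all higher, and 56 mitosis genes, all lower. Of the genes given below as not passing, Atf5 and Hspd1 passed as higher in that fit, and mt-Co1, Cdkn2c and Wnt6 as lower.

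In the G1 phase list, 1 of 27 genes fell and none rose, against 0.17% of all genes entered that fell. Btg2, an antiproliferative gene, was at 38.2, 42.9 and 38.9 CPM in OPA1+/+ and at 31.7, 29.7, 27.0 and 24.3 CPM in OPA1+/- (-0.51 ± 0.09, adjusted p = 0.0176). Ccnd2, a cyclin that drives G1, was at 251, 225 and 253 CPM against 433.5, 419, 569 and 362 CPM, without overlap (0.87 ± 0.17, adjusted p = 0.0709). The inhibitors Cdkn2c and Cdkn1a had -0.48 ± 0.11 and -0.26 ± 0.06 (adjusted p = 0.0824 and 0.0995). Outside the lists, Iqgap3, a scaffold expressed in dividing epithelium, fell by 0.54 ± 0.10 (adjusted p = 0.0187).

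**Figure D3:**
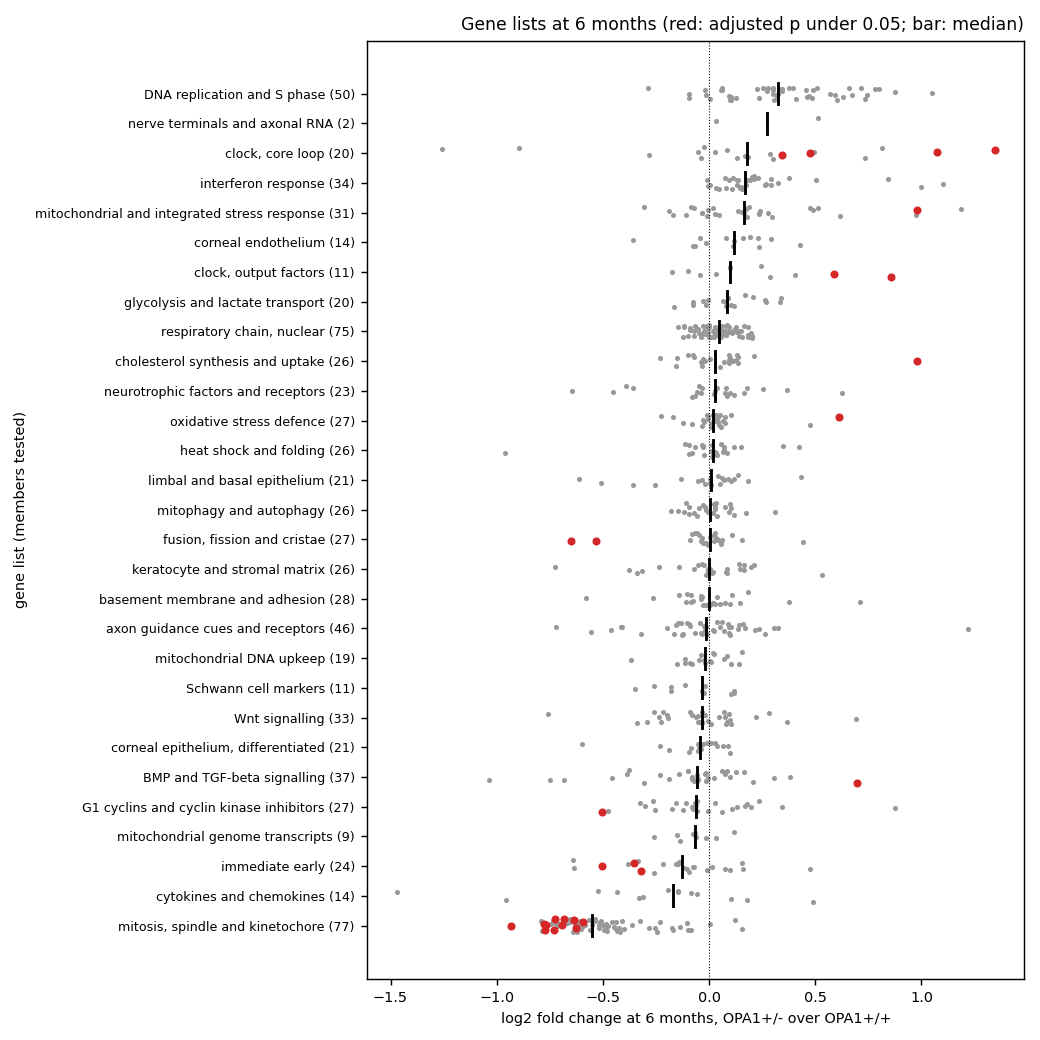
Log2 fold changes at 6 months (OPA1+/- over OPA1+/+, horizontal axis) of the members of each gene list that entered, grey where a gene did not pass and red where its adjusted p was under 0.05; the black bar is the list's median and lists are ordered by it. The mitosis list lies lowest with a median of -0.55, and the DNA replication list highest with 0.33; lists of markers of other tissues and cells are not drawn.

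The level of the clock was also summed up per library. A score of clock phase, the mean log2 CPM of 6 clock outputs minus that of 5 genes of the opposite phase, was 2.58, 2.41 and 2.62 in the OPA1+/+ libraries of 6 months and 3.62, 3.42, 4.27 and 4.02 in the OPA1+/- libraries. The mitosis list summed to 2549, 2687 and 2631 CPM and to 1785, 1879, 1869 and 1897 CPM in the same order. A link between the score and this sum was not tested. The score was 3.16 to 4.05 in the 8 libraries of 3 months. Thus the 3 OPA1+/+ libraries of 6 months had the lowest scores of all 15. With this score as a covariate no gene was called. The score is built in part from called genes and follows the genotype at 6 months, so the part of genotype and that of the score cannot be told apart. The part of the time of dissection was not tested.

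Across the libraries of 3 months 1 gene was called, Opa1 (0.00653% of genes entered; 9.09% had an unadjusted p under 0.05). Those libraries had entered the calls at 6 months through the estimate of the spread, while the fold changes at 3 months come from them alone. Of the 51 genes, 38 had the same sign at 3 months (74.5%), against 54.1% of all genes entered. Among the 1589 genes with an unadjusted p under 0.05 at 6 months, edgeR's test, that share was 67.1%. The 11 mitosis genes all had the same sign, 10 of them with an unadjusted p under 0.05, with a median of -0.38 against -0.73 at 6 months. Of the 6 clock genes 4 had the same sign, with a median of 0.14 against 0.72. At 3 months the mitosis list had a median of -0.30 over its 77 genes, with sums of 1876 to 2657 CPM in OPA1+/+ and 1658 to 2153 CPM in OPA1+/- that overlapped. The replication list had a median of -0.04 there, against 0.33 at 6 months. Its sums at 3 months were 861 to 1735 CPM in OPA1+/+ and 1151 to 1430 CPM in OPA1+/-. That OPA1+/+ range spans the sums of both genotypes at 6 months.

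**Figure D4:**
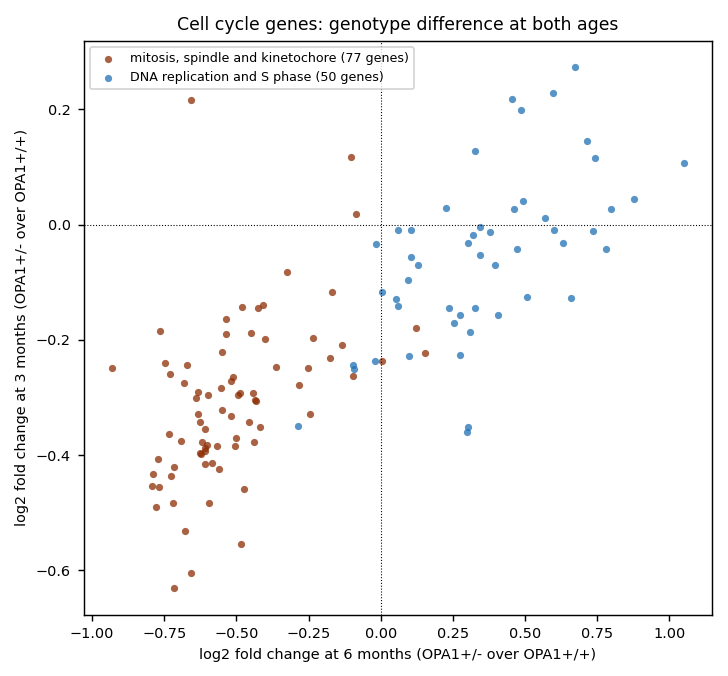
Log2 fold change of OPA1+/- over OPA1+/+ at 6 months (horizontal) and at 3 months (vertical) for each entered gene of the mitosis list (brown, 77 genes) and of the DNA replication list (blue, 50 genes). Mitosis genes lie mostly below 0 at both ages, with medians of -0.55 and -0.30, and replication genes lie to the right at 6 months and around 0 at 3 months.

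No gene passed the test of the interaction, by which the genotype difference at 6 months would be said to differ from that at 3 months (0% called, 1062 genes or 6.94% with an unadjusted p under 0.05, edgeR). DESeq2 called 21. The 5 genes with the smallest p shared an adjusted p of 0.108: Tef, Nr1d2, Jund, a component of the AP-1 transcription factor, Adgrf4, an adhesion receptor, and Piezo1, a mechanically gated channel. Tef had 0.59 ± 0.07 at 6 months and 0.04 ± 0.06 at 3 months, and Nr1d2 had 0.48 ± 0.07 and -0.06 ± 0.07. Jund had -0.32 ± 0.07 and 0.17 ± 0.06, and Adgrf4 -0.55 ± 0.10 and 0.17 ± 0.09. For Opa1 the values were -0.53 and -0.41, and the interaction did not pass (unadjusted p = 0.186 in edgeR's model of all genes). Without OPA1+/+ replicate 1 of 6 months 8 genes passed the interaction, and without OPA1+/- replicate 1 of that age 4 did.

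The immediate early list, many of whose genes respond within minutes to growth signals and stress, included 3 that fell among 24 entered, and none rose. The share of all genes entered that fell was 0.17%. Jun, the core AP-1 factor, was at 74.2, 81.7 and 71.2 CPM in OPA1+/+ and at 63.9, 55.2, 59.3 and 58.8 CPM in OPA1+/- (-0.35 ± 0.07, adjusted p = 0.0318). Jund was at 96.2, 119 and 106 CPM against 90.4, 83.5, 81.8 and 87.5 CPM (-0.32 ± 0.07, adjusted p = 0.0411), and Btg2 belongs to this list as well. The list had 18 negative and 6 positive fold changes, with a median of -0.13. Fos and Egr1, named after their values were seen, had 0.01 ± 0.26 and -0.64 ± 0.58, and both overlapped between the genotypes. At 3 months the median of the list was 0.10, and Jun had 0.15 ± 0.07, Jund 0.17 ± 0.06 and Btg2 -0.10 ± 0.09. The 3 calls became 0 without OPA1+/+ replicate 2 or OPA1+/- replicate 3, and 1 without OPA1+/- replicate 2 or 4.

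Opa1 and Dnm3 were the called genes of the mitochondrial lists for structure and respiration. In the list of fusion, fission and cristae genes, 2 of 27 fell, against 0.17% of all genes entered. Opa1 is the gene altered in these animals, so its fall says nothing about the list, and Dnm3 remains alone. Of the 27, 14 had positive and 13 negative fold changes, with a median of 0.006. Dnm3, a dynamin better known from synapses, was at 16.6, 17.3 and 17.9 CPM against 13.9, 8.82, 10.5 and 10.9 CPM (-0.65 ± 0.13, adjusted p = 0.0304). Mfn2, a fusion GTPase of the outer membrane, was at 105.7 to 116 CPM in OPA1+/+ and at 102 to 110.1 CPM in OPA1+/- (-0.09 ± 0.06). Of 75 nuclear genes of the respiratory chain none passed, 51 were positive, and fold changes ran from -0.15 to 0.20 with a median of 0.05. Of 9 mitochondrially encoded transcripts none passed and 7 were negative. The largest difference was that of mt-Co1, a subunit of cytochrome c oxidase, at 1264 to 1334 CPM against 961 to 1149 CPM, without overlap (-0.26 ± 0.08, adjusted p = 0.226). A further 6 mitochondrially encoded genes were listed at 0 in all 7 libraries and were not used.

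In the list of mitochondrial and integrated stress response genes, 1 of 31 rose, against 0.163% of all genes entered, and 21 were positive. The list's median was 0.17. That gene was Vldlr, a lipoprotein receptor induced in this response, at 7.68, 5.21 and 6.98 CPM in OPA1+/+ and 14.3, 12.1, 10.3 and 15.6 CPM in OPA1+/- (0.98 ± 0.16, adjusted p = 0.0154). Atf5, which switches on chaperone genes when mitochondrial proteins misfold, was at 22.5 to 24.8 CPM against 29.1 to 37.5 CPM (0.49 ± 0.12, adjusted p = 0.1). Hspd1 and Hspa9, chaperones of the mitochondrial matrix, had 0.24 ± 0.07 (adjusted p = 0.189) and 0.19 ± 0.06 (adjusted p = 0.247). Asns, an amino acid synthesis gene that Atf4 activates, had 1.19 ± 0.47 and Atf4 itself 0.03 ± 0.18, both named after their values were seen. Glrx, a glutaredoxin that reverses the oxidation of protein thiols, rose as the 1 called gene of 27 in oxidative defence, at 7.30, 6.92 and 6.59 CPM against 9.39, 11.6, 11.3 and 10.1 CPM (0.61 ± 0.11, adjusted p = 0.0154). In glycolysis none of 20 passed and 14 were positive. The smallest p of that list was that of Pfkfb3, which makes the activator of phosphofructokinase (0.26 ± 0.06, adjusted p = 0.0864).

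No gene was called in the lists that bear on nerve fibres. None of 23 neurotrophic factors and receptors, 46 axon guidance genes and 11 Schwann cell genes passed. In the fit of the 7 libraries alone 1 of them passed, Lifr, a receptor subunit for leukemia inhibitory factor that is named after its value was seen (0.25 ± 0.05, adjusted p = 0.0313, edgeR). Ngfr, the low-affinity neurotrophin receptor, was at 70.4 to 86.1 CPM against 77.3 to 91.4 CPM, and Erbb3, the neuregulin receptor, at 310.1 to 347 CPM against 280.3 to 316 CPM (-0.18 ± 0.06, adjusted p = 0.196). Sema3d, a secreted guidance cue, was at 7.60 to 9.82 CPM in OPA1+/+ and at 25.9, 10.97, 32.5 and 10.1 CPM in OPA1+/-, where replicates 1 and 3 were far above replicates 2 and 4 (1.22 ± 0.37, adjusted p = 0.234). Piezo2, the touch channel of sensory neurons, was at 4.96 to 5.87 CPM against 4.76 to 6.08 CPM, and Gap43, a growth cone protein, at 0.903 to 1.71 CPM against 1.41 to 2.37 CPM.

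Bmp7, a secreted growth factor of the BMP family, rose as the 1 called gene of 37 in BMP and TGF-beta signalling. The share of all genes entered that rose was 0.163%. It was at 10.01, 9.52 and 10.3 CPM in OPA1+/+ and at 15.6, 16.3, 17.99 and 14.5 CPM in OPA1+/- (0.70 ± 0.14, adjusted p = 0.0304). Of 33 Wnt pathway genes none passed. Wnt6, an epithelial ligand, was at 5.58 to 6.90 CPM against 3.08 to 4.21 CPM, without overlap (-0.76 ± 0.18, adjusted p = 0.0864).

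Cell type markers of the cornea did not pass: none of 21 genes of differentiated epithelium, 21 of limbal and basal epithelium, 26 of keratocytes and stroma and 14 of the endothelium was called. Over all genes entered 0.333% were called. Medians of these lists lay between -0.04 and 0.12. In the endothelium list 6 genes were higher and 1 was lower at an unadjusted p under 0.05 (edgeR), against 4.98% and 5.4% of all genes entered. The lower gene was Slc4a11, named after its value was seen, at 223 to 263 CPM against 247, 170.5, 171 and 171 CPM (-0.36 ± 0.15). Leukocyte markers, with 15 of 23 entered, summed to 90.9 to 120 CPM in OPA1+/+ and 92.4 to 114 CPM in OPA1+/-. None of 34 interferon response genes passed, although 32 were positive with a median of 0.17, against 7811 positive of 15309 genes entered. At 3 months the median of this list was -0.19. Its sums at 6 months overlapped, at 3691 to 4774 CPM in OPA1+/+ and 3925 to 6158 CPM in OPA1+/-, with replicate 3 of OPA1+/- the highest. OPA1+/- replicate 3 was highest in Rsad2 and Mx1, antiviral effectors, at 156 and 54.9 CPM, against 39.7 to 85.3 and 18.4 to 24.4 CPM in the other OPA1+/- libraries.

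Cpeb1, a regulator of mRNA polyadenylation and translation, was the called gene with the second largest rise. It was at 4.52, 4.54 and 5.58 CPM in OPA1+/+ and at 10.5, 9.44, 15.9 and 11.6 CPM in OPA1+/- (1.28 ± 0.17, adjusted p = 0.00229). Clmp, a junctional adhesion molecule, fell the most, at 11.1, 13.7 and 8.53 CPM against 5.48, 5.52, 6.02 and 4.69 CPM (-1.03 ± 0.18, adjusted p = 0.0157). Adgrf4 fell by 0.55 ± 0.10 (adjusted p = 0.0154). Among the other risers were Cys1, a protein of primary cilia (0.85 ± 0.17), Tspan4, a tetraspanin (0.84 ± 0.16), and Lpar2, a receptor for lysophosphatidic acid (0.47 ± 0.08). Iars, the cytosolic isoleucyl-tRNA synthetase, rose by 0.39 ± 0.08, Cdr2 by 0.47 ± 0.10 and Setbp1, a chromatin-associated protein, by 0.41 ± 0.08.

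How many genes were called rested on single libraries. The count of 51 dropped to 2 when OPA1+/+ replicate 2 was left out, and to 18 when the library with photoreceptor transcripts, OPA1+/+ replicate 1, was left out. Leaving out replicate 1, 2 or 3 of OPA1+/- gave 33, 22 and 12 genes, and leaving out OPA1+/+ replicate 4 of 3 months gave 87. Without both libraries that held photoreceptor transcripts it was 14, with 1 of the mitosis genes, 1 core clock gene and 1 clock output factor. Tef and Opa1 kept their calls whichever of the 15 libraries was left out, whereas 33 of 34 called genes named here besides Opa1 lost theirs without OPA1+/+ replicate 2. Directions varied less: 72 to 75 of the 77 mitosis genes were negative in these fits and 44 to 47 of the 50 replication genes positive.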

How the data were processed

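Total RNA of mouse cornea was depleted of ribosomal RNA and sequenced as stranded single reads of 75 bases, per the labels' protocols. The deposited values are raw, whole-number counts of reads. The authors made these counts, per the file headers, with featureCounts 2.0.1 over exons summed by gene, on the reverse strand (setting 2) with GENCODE mouse release 28, which is on GRCm39. The submitters' processing notes name mm10 and DESeq2, and for the aligner no name was found in the labels or headers. Symbols were matched for 52081 of 55357 identifiers (94.1%).

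One edgeR 4.0.16 quasi-likelihood model (R 4.3.3, robust, TMM scaling) with a mean for each of 4 groups was fitted to all 15 libraries, which left 11 residual degrees of freedom and a common biological coefficient of variation of 0.0875. Genes needed 10 counts in 3 of the 7 libraries of 6 months. Benjamini-Hochberg adjustment ran over all 15309 genes with a threshold of 0.05. CPM are counts over the TMM-scaled library total, times 1e6. The error after a fold change is its standard error. Limits from 3 counts cover counting error alone.

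The comparison and the gene lists were chosen with earlier results of these data known, and lists are described by counts and medians with no test. Named genes are Opa1, the 15 largest risers and 15 largest fallers among called genes that averaged 1 CPM or more and had a regular symbol, every called list member, all clock genes, up to 4 members with the smallest p of 16 lists, and the 5 genes with the smallest interaction p. Any further gene either checks the libraries or carries a remark that its value was known when it was named. An exact permutation test of Opa1 used log2 CPM (prior count 2; a prior count of 0.5 was the alternative).

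Alternatives were limma 3.58.1 voom, DESeq2 1.42.0, its size factors, 3 other filters, the 7 libraries alone, a replicate block, each library left out, and covariates for Y-linked, clock and photoreceptor genes. Leaving out both libraries with photoreceptor transcripts was added after seeing the data. On data simulated for the comparison at 6 months over 15309 genes, edgeR recovered 61% of 100 genes changed by 0.5 on the log2 scale. It recovered 90% of 100 changed by 1, with 9 false calls in all. Changed genes averaged 1 CPM or more, and counts were drawn independently from the fitted spread. These rates may therefore not hold for the libraries themselves. No 2 libraries of the same genotype at 6 months were duplicates, and other pairs were not checked in this way. Promoter sequences are RefSeq's on GRCm38.p6, and 10 of the 11 fallen mitosis genes matched.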

Additional observations from a re-analysis of the deposited data

Results flagged for a closer look

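In 7 of 117 named genes (5.98%) 1 of the 4 OPA1+/- libraries lay apart, its gap to the next library taking up a larger part of the group's range than Dixon's critical value for 4 samples. Chance sets 1 library apart in about 1 in 20 groups, and none of the 7 genes was called at 6 months. Replicate 1 was low in the period gene Per2 (67.2 CPM against 82.0 to 82.6). It was high in Smad7, an inhibitor of TGF-beta signalling (27.8 CPM against 20.7 to 21.6), and in the ligand Wnt9a (55.1 CPM against 41.4 to 42.4). Replicate 4 was low in the Wnt inhibitor Dkk2 (40.5 CPM against 53.2 to 54.5) and in the glycolytic enzymes Pfkl (47.3 CPM against 60.9 to 61.9) and Tpi1 (93.3 CPM against 102.5 to 103.3). Replicate 3 was high in the antiviral gene Mx1 (54.9 CPM against 18.4 to 24.4).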

How the results depend on the processing

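Against 51 genes called at 6 months, a fit of the 7 libraries alone called 200 (69 higher, 131 lower, 50 of the 51 shared), DESeq2 182 (68 and 114), limma voom 110 (42 and 68) and no filter on low counts 94 (42 and 52). The Y-linked covariate left 27 (15 and 12), the fit without both libraries with photoreceptor transcripts (chosen after seeing the data) 14 (9 and 5), and the clock covariate 0. Leaving out 1 library gave 2 to 87. Of 77 mitosis genes, 11 fell; the 7 libraries alone gave 56, DESeq2 41, voom 21, the Y-linked covariate 4, the fit without both photoreceptor libraries 1, the clock covariate 0, and leaving out 1 library 0 to 23. Core clock calls (4) became 0 with the clock covariate, 1 without both photoreceptor libraries and 0 to 5 without 1 library, and output factors (2) became 0, 1 and 1 to 2. Immediate early calls (3) became 1 with the Y-linked covariate, 0 with the clock covariate and 0 to 3 without 1 library. With the clock covariate, 28 in place of 45 replication genes were positive, Opa1 had -0.63 and lost its call and Bhlhe41 changed sign (-0.032). Interaction calls (0) became 21 with DESeq2, 12 with no filter, 9 without both photoreceptor libraries and 0 to 8 without 1 library, 8 being without OPA1+/+ replicate 1 and 4 without OPA1+/- replicate 1. The cause of these shifts was not tested, and for clock genes the covariate is built from them. DESeq2 size factors and both stricter filters gave 52 genes, and the photoreceptor covariate 48.

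Same-numbered libraries did not vary together (r over genes of -0.134, 0.0464 and 0.0114), so the numbers were not taken as pairs. With the replicate block 48 genes were called, 37 of them among the 51, with 15 mitosis, 3 core clock, 2 output and 3 immediate early calls. Opa1 had -0.53 with the block.

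The 3 OPA1+/+ libraries limit the comparison, since an exact test over 3 and 4 libraries cannot pass 0.05. Nerve transcripts were too few to compare at this depth.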

Other observations

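The genes of the lists aside, 26 genes were called, of which those given here were picked after their values were seen and form no tested group. Macf1, a giant linker of microtubules and actin, was at 662 to 709 CPM in OPA1+/+ and 559 to 606 CPM in OPA1+/- (-0.25 ± 0.05 on the log2 scale, edgeR's adjusted p = 0.0349). Cobl, an actin nucleator, was at 207 to 216 CPM against 173 to 182 CPM (-0.24 ± 0.05, adjusted p = 0.0411). Fmnl1, a formin that elongates actin filaments, moved the other way, at 39.5 to 44.5 CPM against 50.6 to 55.1 CPM (0.33 ± 0.06, adjusted p = 0.0176). Adam17, the protease that sheds epidermal growth factor receptor ligands, fell by 0.30 ± 0.06 (adjusted p = 0.0252), and Gpc1, a cell surface heparan sulfate proteoglycan, by 0.37 ± 0.06 (adjusted p = 0.0154). At 3 months Macf1, Cobl and Fmnl1 had 0.02, 0.03 and -0.04, and Adam17 and Gpc1 had -0.10 and -0.15.

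Of the same 26, Atic, an enzyme of purine synthesis, rose by 0.37 ± 0.07 (adjusted p = 0.0252), and Naa50, an N-terminal acetyltransferase, by 0.28 ± 0.06 (adjusted p = 0.0413). None of 26 heat shock genes, 28 basement membrane genes, 26 autophagy genes and 19 genes of mitochondrial DNA upkeep was called, and the medians of these lists lay between -0.02 and 0.02. Of 26 cholesterol genes 1 was called, Vldlr, against 0.333% of all genes entered, with a list median of 0.03.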
